A study of Mus musculus with 4 samples.

Results

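The genes described here are 40 cell cycle genes, 21 transcribed mainly around S phase and 19 around G2 and mitosis, out of 20719 genes listed in any of 4 single-cell RNA libraries. They were taken by name from a list, which was drawn up with earlier results of these data known, and all 40 were listed in every library. The S members are the helicase and licensing genes Mcm2, Mcm3, Mcm4, Mcm5, Mcm6, Mcm7, Cdc6, Cdt1, Cdc45 and Gins2, the nucleotide supply genes Rrm1, Rrm2 and Tyms, and Pcna, Fen1, Ung, Slbp, Uhrf1, Dtl, Cdca7 and Ccne2 of the fork, repair, chromatin copying and S phase entry. The G2/M members are the mitotic cyclin and kinase genes Cdk1, Ccnb1, Ccnb2, Aurka, Aurkb, Plk1 and Bub1, the spindle and kinetochore genes Cenpe, Cenpf, Kif11, Tpx2, Nusap1, Hmmr and Ckap2l, and Top2a, Mki67, Birc5, Cdc20 and Ube2c of chromosome structure and mitotic exit.

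In the embryonic neural tube, radial progenitors divide at the ventricle and copy their DNA in nuclei that have moved away from it, so a sample taken at one moment holds progenitors in every phase. Some daughters switch on proneural genes, pass through a neuroblast state and leave the cycle as neurons. E2F factors drive the S phase genes as cells pass the restriction point, and the MuvB complex with B-MYB and FOXM1 drives the mitotic genes later, through promoters that often hold CCAAT boxes and a cell cycle homology region (CHR).

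The cells came from dissected heads of mouse embryos at stage E10.5, in the middle of gestation, labelled as embryonic brain, from which dead cells had been removed by sorting. There were 2 libraries labelled Apcdd1+/-, heterozygous for an inhibitor of Wnt signalling at the cell membrane, and 2 labelled WT. No source used here gives the altered part of Apcdd1, the strain or the number of embryos in a library, and p-values measure only the spread between these libraries. Apcdd1 had 77.4 and 49.5 CPM (counts scaled to the same total in every library) in the libraries labelled Apcdd1+/- and 63.4 and 60.8 CPM in WT, so its level did not separate the labels.

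After filtering, 24259 cells were kept, between 2956 and 9501 a library, with median totals of unique molecular identifiers (UMIs, counted transcripts) from 8934.5 to 17133.5, highest in WT replicate 2. Pairs of libraries shared between 6 and 25 of the bead barcodes listed for them. The list of Apcdd1+/- replicate 1 ended before the last of its cells, so the counts with that library are incomplete. Cells were assigned to classes by marker genes, none of them a member: 11371 neural progenitors, 983 neuroblasts, 1366 neurons, 2101 mesenchymal and 660 epithelial cells. These classes do not cover all cells kept. The remaining cells fell in smaller classes, passed gates of more than 1 class or were assigned to none, and were not used in the class tests. The summed neuron markers, such as Tubb3 and Stmn2, had 16543 CPM in neurons and 166 CPM in progenitors, and the summed proneural markers 1732 CPM in neuroblasts and 74.3 CPM in progenitors. The summed progenitor markers, such as Sox2 and Nes, had 1155 CPM in progenitors, 941 CPM in neuroblasts and 331 CPM in neurons. The gates used these same markers, so the sums describe the gating and do not test it. Here CPM is taken over the UMIs summed across the cells of a class in a library.

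The promoters of 3 S and 3 G2/M members described below are printed first, to show examples with and without the motifs searched. RefSeq promoters of GRCm38.p6 were matched for 35 of the 40 members, each from 250 bases before to 50 after the start, and 3 members had 2 promoters. The motifs searched, on both strands, were the E2F site (TTTCCCGC, TTTCGCGC, TTTGCCGC or TTTGGCGC), the CCAAT box (CCAAT) and the CHR (TTTGAA). The 200 bases before the start are shown 5′ to 3′ on the strand of the gene, with matches in capitals. Ung, which removes uracil from DNA, lies at chr5:114130235-114130434 on the + strand, Cdc6, which loads the helicase at origins, at chr11:98907951-98908150 on the + strand, and Mcm6, a helicase subunit, at chr1:128359706-128359905 on the - strand. Cdk1, the mitotic kinase, lies at chr10:69352913-69353112 on the - strand, Top2a, which untangles chromosomes, at chr11:99024190-99024389 on the - strand, and Ube2c, which tags cyclin B for destruction, at chr2:164769729-164769928 on the + strand.
Ung: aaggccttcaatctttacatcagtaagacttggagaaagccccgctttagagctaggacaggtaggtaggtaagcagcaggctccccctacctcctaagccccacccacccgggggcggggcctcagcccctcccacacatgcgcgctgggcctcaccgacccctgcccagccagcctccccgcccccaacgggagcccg
Cdc6: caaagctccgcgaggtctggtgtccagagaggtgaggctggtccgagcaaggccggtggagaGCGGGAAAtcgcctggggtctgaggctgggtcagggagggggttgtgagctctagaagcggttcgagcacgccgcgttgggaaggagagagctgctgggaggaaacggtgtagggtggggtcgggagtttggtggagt
Mcm6: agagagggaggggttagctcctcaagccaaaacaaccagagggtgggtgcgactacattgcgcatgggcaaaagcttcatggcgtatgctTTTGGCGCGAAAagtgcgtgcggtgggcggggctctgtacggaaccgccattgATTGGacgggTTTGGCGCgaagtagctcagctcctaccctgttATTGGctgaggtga
Cdk1: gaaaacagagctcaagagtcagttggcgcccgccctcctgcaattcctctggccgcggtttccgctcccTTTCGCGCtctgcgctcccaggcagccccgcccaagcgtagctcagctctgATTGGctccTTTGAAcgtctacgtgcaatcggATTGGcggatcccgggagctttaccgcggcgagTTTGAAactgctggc
Top2a: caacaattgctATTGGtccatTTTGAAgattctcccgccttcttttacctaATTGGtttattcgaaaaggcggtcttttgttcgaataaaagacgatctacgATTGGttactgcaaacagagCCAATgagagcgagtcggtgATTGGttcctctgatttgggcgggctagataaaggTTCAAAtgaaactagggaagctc
Ube2c: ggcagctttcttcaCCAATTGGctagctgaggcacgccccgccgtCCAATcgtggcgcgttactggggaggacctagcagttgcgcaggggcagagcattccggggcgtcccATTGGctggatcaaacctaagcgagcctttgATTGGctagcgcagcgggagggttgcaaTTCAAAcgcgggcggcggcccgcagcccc
An E2F site was found in 9 of 18 S members with a promoter (50.0%) and in 1 of 17 G2/M members (5.88%). Of all 32851 promoters of that length 2.26% had one. A member with 2 promoters was counted if either held the motif, while all promoters were counted singly. The 3 such members, Fen1, Mcm7 and Uhrf1, are S members. Only 1 of the 2 promoters held the E2F site in Mcm7 and Uhrf1 and the CHR in Fen1. The single G2/M member was Cdk1, with its site at -131, counting the base just before the start as -1 and giving the leftmost base. A CHR was found in 12 of 17 G2/M members (70.6%) and in 3 of 18 S members (16.7%), beside 17.9% of all promoters, and each of those 12 also had a CCAAT box. CCAAT boxes stood in 15 of 17 G2/M members (88.2%), in 12 of 18 S members (66.7%) and in 37.4% of all promoters. Mcm6 had E2F sites at -110, -106 and -47, and Top2a had a CHR at -179 and at -23. None of these letters was found in the window of Ung, which says only that they are not written there.

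Neurons had less RNA of every member than progenitors. All 40 members were lower in neurons at an adjusted p under 0.05 (edgeR quasi-likelihood test on summed counts with the library as a block, Benjamini-Hochberg over 12581 genes), where 34.2% of all genes tested were called lower and 37.4% higher. The median log2 difference was -1.77 over the 21 S members and -1.51 over the 19 G2/M members, beside 0.03 over all genes tested. Among the S members the differences ran from -2.74 for Ung to -0.99 for Mcm2, and among the G2/M members from -1.74 for Aurkb to -1.21 for Hmmr. The medians of the S and G2/M members depended on the gates. They were -1.83 and -1.83 with gates set on cells thinned to 3000 UMIs. With neuroblasts and neurons limited to at most 1 progenitor marker they were -2.42 and -2.37. All these differences are on edgeR's TMM scale, and the CPM values beside them are not rescaled.

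Ung had 95.3 and 88.6 CPM in progenitors of the libraries labelled Apcdd1+/- and 82.5 and 92.8 CPM in those of WT, and 12.1, 15.6, 14.9 and 11.7 CPM in neurons of the same libraries. The neuron values lay far below the progenitor values in all 4 libraries, a log2 difference of -2.74 (SE 0.11, edgeR adjusted p = 1.02e-19). Mcm3, a subunit of the replicative helicase, had 234, 188, 197 and 240 CPM in progenitors and 50.9, 28.3, 40.1 and 60.8 CPM in neurons, in the same order of libraries. Its log2 difference was -2.29 (SE 0.09, edgeR adjusted p = 3.5e-19). Dtl, which directs the destruction of Cdt1 during S phase, followed at -2.22 (SE 0.11).

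The helicase subunits did not fall by the same amount. Mcm2 had 192, 170, 168 and 171 CPM in progenitors and 94.3, 82.3, 84.7 and 97.9 CPM in neurons, a log2 difference of -0.99 (SE 0.07, edgeR adjusted p = 6.91e-14). Mcm5, Mcm6, Mcm4 and Mcm7 lay between Mcm3 and Mcm2, at -1.99, -1.85, -1.78 and -1.57. Pcna, the sliding clamp of the fork, had 302, 129, 206 and 178 CPM in progenitors and 87.7, 29.4, 66.0 and 61.0 CPM in neurons. Pcna was highest in Apcdd1+/- replicate 1 and lowest in Apcdd1+/- replicate 2 in both classes, and its log2 difference of -1.77 (SE 0.09, edgeR adjusted p = 2.3e-16) is taken within libraries.

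The G2/M members fell by more similar amounts. Aurkb, the kinase that corrects kinetochore attachment, had 71.5, 43.4, 57.8 and 52.5 CPM in progenitors and 23.0, 7.35, 19.5 and 18.8 CPM in neurons, and its log2 difference was -1.74 (SE 0.12, edgeR adjusted p = 4.84e-14). Plk1, the polo-like kinase of mitotic entry, and Bub1, a kinase of the spindle checkpoint, fell by 1.73 and 1.67 on the log2 scale. Top2a had 501, 594, 546 and 644 CPM in progenitors and 168, 154, 188 and 299 CPM in neurons (log2 difference -1.54, SE 0.10, edgeR adjusted p = 5.69e-14). Mki67, the chromosome surface protein Ki-67, had 207, 268, 214 and 326 CPM in progenitors and 65.6, 65.6, 68.4 and 148 CPM in neurons (log2 difference -1.59, SE 0.11, edgeR adjusted p = 2e-13). WT replicate 2, the deepest library, had the most Top2a and Mki67 in both classes, and for both genes every neuron library lay below every progenitor library.

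Neuroblasts, the class between, had less RNA of nearly all S members than progenitors, while most G2/M members were not called. Of the S members, 19 of 21 were lower in neuroblasts than in progenitors, with a median of -0.50, where 19.5% of all genes tested were called lower and the median of all genes was 0.00. Of the G2/M members, 4 of 19 were lower and 1 was higher, where 21.4% of all genes were called higher, and their median was -0.10. The S members that did not pass were Mcm2 (-0.10, SE 0.07, edgeR adjusted p = 0.252) and Rrm2, a subunit of ribonucleotide reductase (-0.16, SE 0.08, edgeR adjusted p = 0.137).

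**Figure D1:**
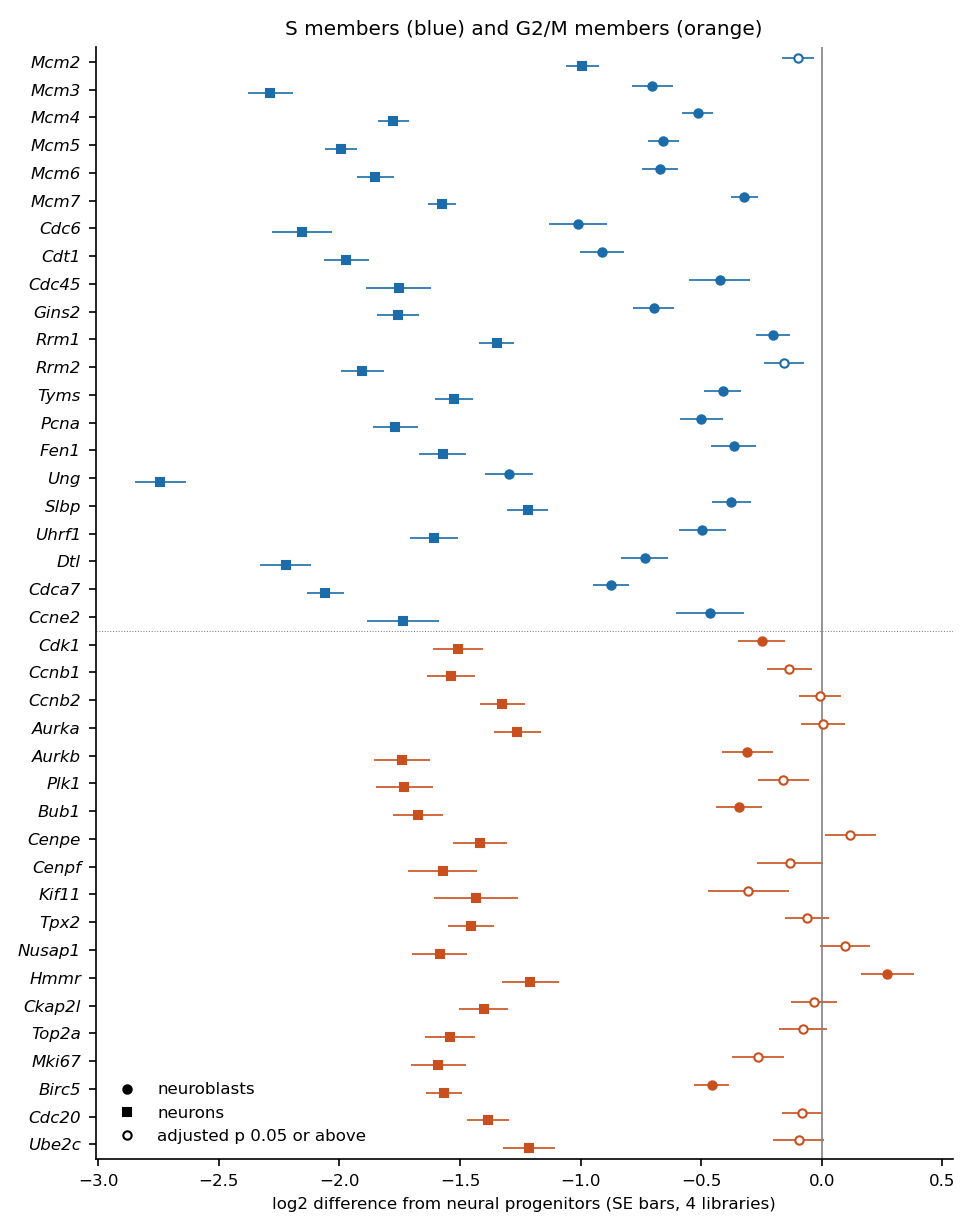
Log2 difference of each member in neuroblasts (circles) and neurons (squares) from progenitors, with standard errors from edgeR over 4 libraries; open symbols have an adjusted p of 0.05 or above. The S members (blue, above) lie left of 0 in both classes, from -1.30 to -0.10 in neuroblasts, while the G2/M members (orange, below) lie between -0.46 and 0.27 in neuroblasts and between -1.74 and -1.21 in neurons.

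Ung had 37.7, 45.7, 30.3 and 30.7 CPM in neuroblasts, below all 4 progenitor values and above all 4 neuron values, and its log2 difference from progenitors was -1.30 (SE 0.10, edgeR adjusted p = 4.93e-12). The licensing gene Cdc6 had 49.1, 51.0, 46.2 and 59.4 CPM in progenitors and 18.2, 35.7, 21 and 28.4 CPM in neuroblasts (log2 difference -1.01, SE 0.12, edgeR adjusted p = 6.26e-08). Cdt1, which loads the helicase together with Cdc6, had 162, 155, 142 and 149 CPM in progenitors and 89.2, 94.7, 70.3 and 62.8 CPM in neuroblasts (log2 difference -0.91, SE 0.09, edgeR adjusted p = 2.17e-09). For both genes every neuroblast library lay below every progenitor library. Pcna fell by 0.50 (SE 0.09, edgeR adjusted p = 4.49e-05) on the log2 scale.

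Top2a had 518, 493, 502 and 582 CPM in neuroblasts, which overlapped the progenitor range, and its log2 difference was -0.08 (SE 0.10, edgeR adjusted p = 0.562). Aurka, the kinase of the spindle poles, had 108, 112, 98.6 and 99.9 CPM in progenitors and 128, 87.5, 87.8 and 104 CPM in neuroblasts (log2 difference 0.01, SE 0.09). The neuroblast values of Aurka lay on both sides of those of progenitors. The 4 G2/M members that fell were Birc5, the survivin subunit of the Aurora B complex (-0.46, SE 0.07, edgeR adjusted p = 7.59e-06), Bub1 (-0.34, SE 0.10), Aurkb (-0.31, SE 0.11) and Cdk1 (-0.25, SE 0.10, edgeR adjusted p = 0.0426). Mki67 was at -0.26 (SE 0.11, edgeR adjusted p = 0.0505). Hmmr, a spindle assembly factor, was called higher at 0.27 (SE 0.11, edgeR adjusted p = 0.0459), with 77.4, 46.8, 44.9 and 67.1 CPM in neuroblasts against 55.2, 45.9, 46.8 and 51.9 CPM in progenitors, ranges that overlap. That call was kept in 2 of 11 alternatives, lost in 8, DESeq2 (adjusted p = 0.115) and 3 of the 4 fits without a library among them, and of the other sign in 1.

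How many G2/M members fell in neuroblasts depended on where the gate was placed, and so did the gap between the lists. With neuroblasts and neurons limited to at most 1 progenitor marker, 15 of 19 G2/M members were called lower and the medians were -1.04 over the S and -0.84 over the G2/M members, with 16 to 80 neuroblasts a library. With gates set on cells thinned to 3000 UMIs, 13 G2/M and 17 S members were called lower, the medians were -0.31 and -0.28, and Hmmr was at -0.04. With 1 more marker in each gate the medians were -0.63 and -0.22, and 7 G2/M members were called lower. Without WT replicate 1 the G2/M count was 2.

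From neuroblasts to neurons all 40 members fell again, where 26.5% of all genes tested were called lower and 26.7% higher. The median log2 difference was -1.21 over the S members and -1.37 over the G2/M members, and the values ran from -1.75 for Rrm2 (SE 0.10, edgeR adjusted p = 3.56e-15) to -0.85 for Slbp, which binds histone messenger RNA (SE 0.09, edgeR adjusted p = 7.28e-09). Rrm2 had 220, 292, 207 and 279 CPM in neuroblasts, with 2 libraries inside and 2 below the progenitor range of 261 to 294 CPM, and 73.6, 58.8, 80.4 and 93.0 CPM in neurons. Of the G2/M members, Nusap1, which bundles spindle microtubules, fell most at -1.68 (SE 0.13) and Birc5 least at -1.11 (SE 0.09). Neuroblasts and neurons are both compared with the same progenitors here, so the 3 contrasts share their samples.

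Counted cell by cell, the share of cells without any G2/M member UMI was larger in neuroblasts and neurons than in progenitors. Cells were thinned to 3000 UMIs each, which left out 104 progenitors, 20 neuroblasts and 73 neurons that were shallower. At that depth 3.16% ± 0.685 of progenitors (SD, n = 4 libraries) had no UMI of any G2/M member, against 25.5% ± 2.40 of neuroblasts and 56.3% ± 5.25 of neurons. Without thinning the shares were 0.847%, 16.0% and 34.4%. A total of 10 or more G2/M member UMIs was found in 38.1% ± 2.81 of progenitors, 28.6% ± 1.65 of neuroblasts and 10.8% ± 4.04 of neurons. Cells with 1 to 9 were the largest group in progenitors (55.9% to 61.8%) and in neuroblasts (43.0% to 49.5%) of every library.

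Cells without any S member UMI were fewer in each class than those without a G2/M one. At 3000 UMIs a cell the median was 11 S member UMIs in progenitors, 6.25 in neuroblasts and 2 in neurons, as means over the 4 libraries. No S member UMI was found in 0.0816% of progenitors, 2.30% of neuroblasts and 17.5% of neurons. Neuroblasts without any G2/M member UMI had 4.31 to 5.27 S member UMIs a cell, and those with 10 or more had 8.05 to 9.05.

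**Figure D2:**
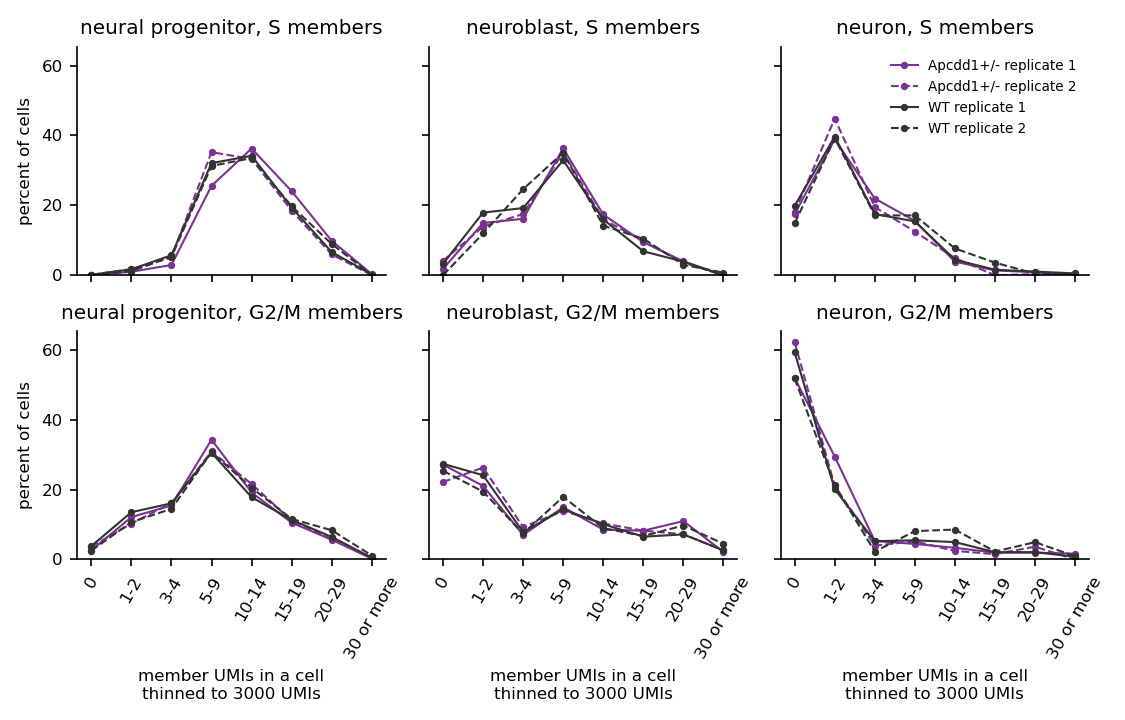
Share of cells (vertical axis, percent) by the number of S member UMIs (upper row) or G2/M member UMIs (lower row) in a cell thinned to 3000 UMIs, one line a library. Progenitors have few cells at 0 in either row, while 51.8% to 62.2% of neurons and 22.2% to 27.4% of neuroblasts in the 4 libraries have no G2/M member UMI.

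Most G2/M RNA of the neuron class lay in a small group of cells. Between 25 and 38 neurons a library, 7.62% to 16.7% of the class, had 10 or more G2/M member UMIs at the common depth, and they held 65.6% to 75.5% of the G2/M member UMIs of the class. The share was highest in WT replicate 2. These cells had 9.63 to 15.7 neuron marker UMIs each, against 48.2 to 67.2 in neurons without a G2/M UMI, and 1.04 to 2.30 progenitor marker UMIs against 0.598 to 0.811. Their median UMI totals before thinning were higher in each library, for example 11634 against 8141 in Apcdd1+/- replicate 1, and whether they hold 2 cells was not tested. Leaving out cells above 2 times the median UMI count kept all 40 members lower in neurons. In progenitors 35.6% to 41.6% of cells had 10 or more and held 63.9% to 71.0% of the class total. In neuroblasts they were 26.4% to 29.9% of cells and held 75.9% to 79.0%. Those neuroblasts were deeper before thinning than neuroblasts without a G2/M UMI, for example 11559.5 against 6031 in Apcdd1+/- replicate 1. Deeper cells weigh more in summed counts, and the part of this in the neuroblast result was not tested.

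**Figure D3:**
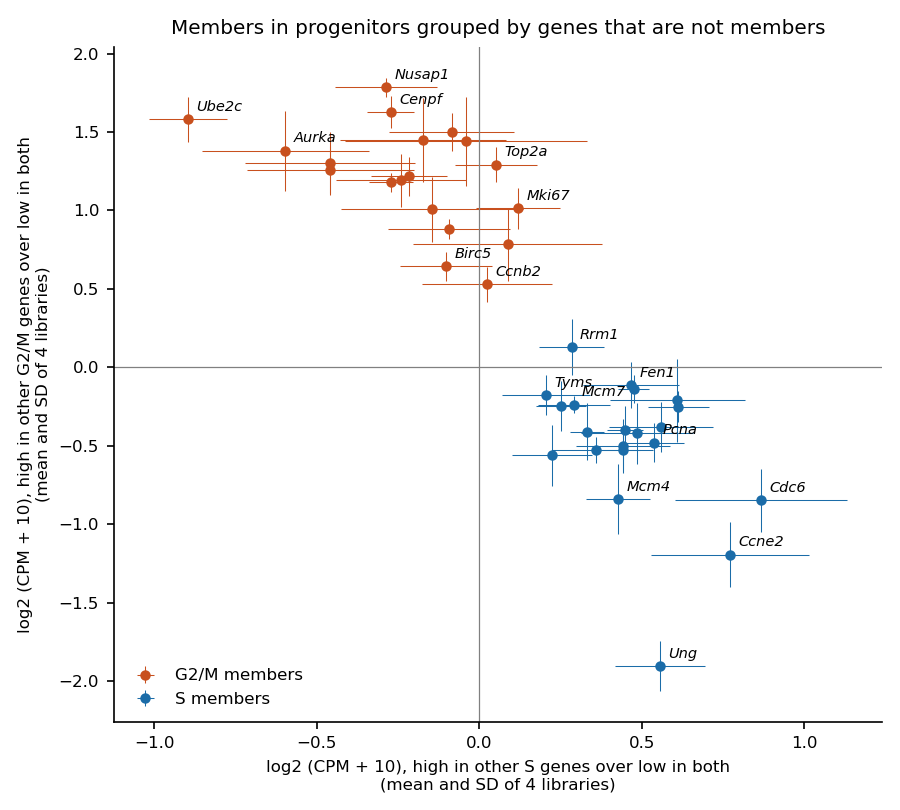
Members in progenitors with high S gene content (horizontal axis) and high G2/M gene content (vertical axis), each as a log2 ratio of CPM + 10 over progenitors low in both; points are means and bars SDs over 4 libraries. Groups were made from 31 other S and 36 other G2/M genes that are not members. The S members (blue) lie right of the vertical line and, except Rrm1, below the horizontal one. The G2/M members (orange) lie above the horizontal line, most of them left of the vertical one. Top2a (0.05), Mki67 (0.12), Bub1 (0.09) and Ccnb2 (0.02) lie right of it, with bars that cross it. Rrm1, Tyms, Ccnb2 and Birc5 are nearest the centre among the labelled genes.

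Within progenitors, S and G2/M members tended to be highest in different cells, a shift that was partial. Progenitors were ranked in each library by the summed UMIs of 31 other S genes and of 36 other G2/M genes, lists that hold no member, at 3000 UMIs a cell. Cells in the top 25% of the S list alone were 18.6% to 21.1% of progenitors in the 4 libraries, those in the top 25% of the G2/M list alone 21% to 22.7%, and those in both 1.69% to 2.13%. The S and G2/M groups compared below leave out the cells high in both. Progenitors with 10 or more G2/M member UMIs still had 8.75 to 10.1 S member UMIs a cell, against 12.7 to 14.1 in those with 1 to 9. Cells of one library are not replicates, so the values below are descriptions over 4 libraries.

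Ung had 164 ± 10.1 CPM (SD, n = 4) in the S group and 21.8 ± 3.42 CPM in the G2/M group, a log2 ratio of -2.46 (from -2.57 to -2.37 over the 4 libraries). Ccne2, the cyclin E of S phase entry, had 76.7 ± 11.5 and 12.3 ± 3.75 CPM, and Cdc6 98.5 ± 15.2 and 22.9 ± 3.32 CPM. These 3 genes are known to peak at or before the start of S phase. Rrm1, the large subunit of ribonucleotide reductase, had 325 ± 35.6 and 292 ± 39.1 CPM, a log2 ratio of -0.15 that ran from -0.30 to 0.09, and Tyms, thymidylate synthase, had a ratio of -0.38. Pcna stood between, at -1.02.

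In the other direction, Ube2c had 74.0 ± 16.6 CPM in the S group and 457 ± 81.9 CPM in the G2/M group, a log2 ratio of 2.48. Nusap1 followed at 2.07, Aurka at 1.98 and Cenpf, a kinetochore protein, at 1.9. Top2a, at 393 ± 11.6 and 950 ± 132 CPM, had a ratio of 1.24 and Mki67 one of 0.89. The lowest ratios among the G2/M members were those of Ccnb2, a cyclin B (0.51), Bub1 (0.70) and Birc5 (0.75). All 19 G2/M members had positive mean ratios and all 21 S members negative ones.

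Over single progenitors the summed S and summed G2/M member UMIs had rank correlations of -0.40, -0.42, -0.41 and -0.45 in the 4 libraries, over 1423 to 4472 cells thinned to one depth, where a higher sum of one leaves less room for other RNA. Pairs of single members were correlated weakly, with medians from 0.0446 to 0.0525 between S members and from 0.0886 to 0.108 between G2/M members, which at these counts is a description only.

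The inhibitors and G1 genes moved beside the members. Of 12 cell cycle inhibitors, 9 were higher in neuroblasts than in progenitors and none was lower, where 21.4% of all genes were called higher and 19.5% lower. Gadd45g, a growth arrest gene, Btg2, an antiproliferative gene, and Cdkn1c, the p57 inhibitor, had log2 differences of 5.41 (SE 0.12), 2.94 (SE 0.10) and 2.89 (SE 0.10). In neurons 10 of the 12 were higher and 1 was lower, where 37.4% of all genes were called higher and 34.2% lower, with Cdkn1c at 2.30 and Btg2 at 1.35, and Cdkn1a, the p21 inhibitor, was at 2.05 in neuroblasts and 3.33 in neurons. Gadd45g and Cdkn1c were lower in neurons than in neuroblasts, by log2 differences of -1.90 and -0.60.

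Of 15 G1 and E2F genes, 10 were lower and 3 higher in neuroblasts than in progenitors, beside the same 19.5% and 21.4% of all genes. The 3 were E2f1 (0.87, SE 0.07), Ccnd1, a cyclin D (0.65, SE 0.10), and its kinase partner Cdk4 (0.16, SE 0.04). Ccnd2, the other cyclin D of this tissue, was at -0.18 (SE 0.10, edgeR adjusted p = 0.16). In neurons 14 of the 15 were lower, beside 34.2% of all genes. Of the 31 other S genes, 30 were lower in neuroblasts, where 19.5% of all genes were, with a median of -0.61, among them Lig1, DNA ligase (-0.71), Dut, which clears dUTP (-0.58), and Nasp, a histone chaperone (-0.19). Of the 36 other G2/M genes, 13 were lower and 2 higher in neuroblasts, with a median of -0.18. The 2 were Cdc25b, the phosphatase that activates Cdk1 (2.30, SE 0.08), and the chromatin chaperone gene Anp32e (0.17, SE 0.04). Hmgb2, a chromatin protein of dividing cells, was at -0.12 (SE 0.06, edgeR adjusted p = 0.103) and Smc4, a condensin subunit, at -0.34 (SE 0.07). In neurons Cdc25b was at -0.02 (SE 0.10).

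Mesenchyme, the connective tissue precursor of the head, had small median differences from progenitors in both lists. Counting both directions, neither list had a larger share called than all genes did. Against progenitors, 7 S members were lower and 1 higher, and 9 G2/M members were lower and 1 higher, where 26.4% of all genes tested were called lower and 30.2% higher. The medians were -0.10 and -0.18, beside 0.02 over all genes. Nusap1 had 117, 138, 133 and 140 CPM in progenitors and 50.1, 67.2, 67.3 and 62.0 CPM in mesenchyme (log2 difference -0.97, SE 0.10, edgeR adjusted p = 7.15e-10). Cenpf had 261, 327, 269 and 376 CPM in progenitors and 136, 163, 112 and 181 CPM in mesenchyme (log2 difference -0.94, SE 0.13, edgeR adjusted p = 3.63e-07). For both genes the ranges of the 2 classes did not overlap.

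Mki67 (-0.48), Ccnb1, a cyclin B (-0.42), and Top2a (-0.33) also fell in mesenchyme, while Birc5 rose to 0.28 (SE 0.06, edgeR adjusted p = 0.000353). Cdc20, the activator of the anaphase complex, was at -0.01 and Rrm1 at 0.02. Of the S members, Mcm7 and Rrm2 fell by 0.32 and Pcna by 0.31 on the log2 scale, Mcm2 was at -0.11 (SE 0.06, edgeR adjusted p = 0.114), and Tyms was called higher (0.20, SE 0.06, edgeR adjusted p = 0.0102) with CPM values of 170, 134, 165 and 142 that overlapped those of progenitors at 162, 135, 155 and 133. The call of Tyms was kept in 4 of 11 alternatives and lost in 7, where its value stayed positive, among them those without Apcdd1+/- replicate 1 or WT replicate 1. Btg2 was at -1.82 and Ccnd1 at -1.02 in the same contrast.

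Epithelium, the surface ectoderm and related sheets of the head, had lower levels of most members. Of the S members 20 of 21 and of the G2/M members 15 of 19 were lower than in progenitors, where 25.5% of all genes tested were called lower and 27.5% higher. Rrm2 had 141, 127, 108 and 110 CPM in epithelium, below the lowest progenitor library at 261 CPM (log2 difference -1.24, SE 0.09, edgeR adjusted p = 2.01e-12). Pcna followed at -0.99 (SE 0.10) and Ccne2 at -0.82 (SE 0.16), while Ung did not pass, at -0.13 (SE 0.09, edgeR adjusted p = 0.23). Among the G2/M members Nusap1 fell by 0.81, Ccnb1 by 0.70 and Aurkb by 0.60 on the log2 scale, and Hmmr was at -0.02. Mcm2, Top2a and Mki67 were at -0.38, -0.50 and -0.48. No G2/M member UMI was found in 17.2% ± 3.04 of epithelial cells at 3000 UMIs, against 4.28% ± 2.77 of mesenchymal cells. Cdkn1a had a log2 difference of 3.77 (SE 0.13) in epithelium.

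Classes with under 50 cells in a library were not tested. Endothelium, neural crest or glia, primitive erythroid cells and macrophages held 214, 86, 128 and 164 cells in all. At 3000 UMIs a cell, no G2/M member UMI was found in 18.4% ± 8.62 of endothelial cells, 2.82% ± 3.66 of neural crest or glial cells, 6.86% ± 4.86 of erythroid cells and 2.00% ± 4.0 of macrophages. Summed G2/M members had 1302 CPM in erythroid cells and 3019 CPM in progenitors, and summed S members 1971 and 3849 CPM. Mki67 went the other way, with 432, 365, 286 and 308 CPM in erythroid cells, above the progenitor value in 3 of the 4 libraries. Globins and collagens took 418872 CPM of the erythroid cells.

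Among progenitors of the 5 regions tested, every member differed less than it did between neurons and progenitors. Regions were gated on patterning genes, and 5 of them had at least 50 cells in every library: telencephalon, hypothalamus, thalamus or pretectum, midbrain and floor plate. Each was compared with the mean of the other 4 in a fit with the library as a block, over 11090 genes. The largest difference of any member was the -0.55 of Ung in the floor plate. Neural retina, isthmus, hindbrain and roof plate had under 50 cells in a library and were not tested. Summed S members had 4033 CPM in hindbrain and 3316 CPM in neural retina, beside 3416 (floor plate) to 3969 CPM (midbrain) in the tested regions. Summed G2/M members had 3436 CPM in hindbrain and 2750 CPM in neural retina, beside 2837 (hypothalamus) to 3356 CPM (floor plate).

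The floor plate, the ventral midline that secretes Sonic hedgehog, had the lowest S member median of the 5 regions. Of the 21 S members 14 were lower, where 12.9% of all genes were called lower, with a median of -0.23. Of the 19 G2/M members 3 were higher, a share near the 14% of all genes called higher. None was lower, which also held in the thalamus or pretectum. Ung had 65.0, 75.1, 65.1 and 59.0 CPM in the floor plate (log2 difference -0.55, SE 0.10, edgeR adjusted p = 1.06e-05). In the telencephalon it had 103, 98.3, 89.8 and 96.2 CPM, all above the floor plate values. Cdt1 (-0.50, SE 0.08) and Pcna (-0.49, SE 0.07) followed, while Cdc45, which activates the helicase, was at -0.07 and Mcm2 at -0.08.

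Cenpf had 340, 421, 366 and 534 CPM in the floor plate and 230, 269, 223 and 324 CPM in the telencephalon, and each library had more in the floor plate. Against the mean of the other regions its log2 difference in the floor plate was 0.37 (SE 0.06, edgeR adjusted p = 1.09e-05), with Nusap1 at 0.26 (SE 0.10) and Top2a at 0.18 (SE 0.07). Aurkb was at -0.25 (SE 0.10, edgeR adjusted p = 0.0647), Mki67 at -0.06 and Aurka at -0.01. Floor plate cells also had 6 of 12 inhibitors higher and 19 of 31 other S genes lower, the latter with a median of -0.25. Without WT replicate 2 the count of lower S members was 9, and without Apcdd1+/- replicate 1, WT replicate 1 or WT replicate 2 the count of higher G2/M members was 1.

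The midbrain had 10 S members higher and none lower, where 6.52% of all genes were called higher and 5.14% lower, with a median of 0.15. Pcna had 314, 153, 237 and 201 CPM in the midbrain (log2 difference 0.36, SE 0.06, edgeR adjusted p = 6.89e-06) and 302, 113, 198 and 182 CPM in the telencephalon. Gins2, a subunit that joins the helicase at origins, followed at 0.34 (SE 0.06) and Slbp at 0.25 (SE 0.06), with Dtl at -0.02 and Mcm2 at 0.11. Ccnb1 (0.22, SE 0.06) and Tpx2, which nucleates spindle microtubules (0.17, SE 0.05), were the G2/M members called higher. Kif11, the spindle motor, was at 0.20 (SE 0.13), Bub1 at 0.19, Mki67 at 0.15, Top2a at 0.11 and Nusap1 at 0.00. Without Apcdd1+/- replicate 1, 5 S members and 0 G2/M members were called higher, and the G2/M count was 1 without either WT library and 5 without Apcdd1+/- replicate 2.

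The hypothalamus had 7 of 19 G2/M members and 3 of 21 S members lower, where 6.91% of all genes were called lower, and none higher, where 7.6% were. Ccnb1 had 105, 151, 102 and 97.3 CPM there against 150, 151, 148 and 153 CPM in the midbrain, with Apcdd1+/- replicate 2 at the same value in both (log2 difference -0.39, SE 0.08, edgeR adjusted p = 0.000118). Ckap2l, a spindle protein, was at -0.39 (SE 0.12), and Ube2c and Nusap1 at -0.35. The other G2/M members called lower were Bub1, Tpx2 and Birc5. Rrm1 (-0.29, SE 0.05), Rrm2 (-0.23, SE 0.06) and Mcm4 (-0.17, SE 0.06) were the S members called lower. Cdc45 was at -0.28 (SE 0.13, edgeR adjusted p = 0.167), Pcna at -0.16, Mcm2 and Top2a at -0.14, Mki67 at -0.18, Cdk1 at -0.04 and Cdt1 at -0.02. The smallest sample was Apcdd1+/- replicate 2 with 59 cells, where Top2a had 829 CPM against 462 to 497 CPM in the other libraries, and without that library 12 G2/M members were called lower. The G2/M count was 4 without Apcdd1+/- replicate 1 or WT replicate 1 and 2 without WT replicate 2, and the S count was 1 without Apcdd1+/- replicate 1.

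The telencephalon had 6 S members higher, where 13.5% of all genes were called higher, and Gins2 lower, where 13.1% were called lower. Gins2 had 94.0, 64.4, 70.7 and 67.4 CPM there against 131, 91.3, 114 and 101 CPM in the thalamus or pretectum, lower in each library (log2 difference from the other regions -0.45, SE 0.06, edgeR adjusted p = 4.96e-08). Ung (0.31, SE 0.07) and Cdca7, which recruits a chromatin remodeller (0.28, SE 0.04, edgeR adjusted p = 1.18e-06), rose most, and Pcna was at 0.16 (SE 0.06). Cenpf (-0.30, SE 0.06), Top2a (-0.16, SE 0.06) and Tpx2 (-0.14, SE 0.05) were lower and Ccnb1 higher (0.16, SE 0.05). Mki67 was at -0.04, Mcm2 and Nusap1 at 0.01 and -0.01, and Mcm6 at 0.00. The count of higher S members was 3 without Apcdd1+/- replicate 1, and that of lower G2/M members was 1 without either Apcdd1+/- library or WT replicate 1.

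The thalamus or pretectum had 6 S members higher, where 4.88% of all genes were called higher and 3.99% lower, and no G2/M member called. The 6 were Cdt1, Gins2, Uhrf1, which passes on DNA methylation, Rrm2, Mcm4 and Mcm6, at 0.16 to 0.21. Cdt1 had 170, 155, 135 and 171 CPM there (log2 difference 0.21, SE 0.06, edgeR adjusted p = 0.0149). Ccne2 was at 0.25 (SE 0.11, edgeR adjusted p = 0.154), Pcna at 0.13, Mcm2 at 0.10 and Fen1, the flap nuclease, at 0.00. Mki67 was at 0.13, Kif11 at -0.21 (SE 0.12), Bub1 at 0.15, Tpx2 at 0.14 and Top2a at 0.01. The count of higher S members was 0 without Apcdd1+/- replicate 1, 2 without WT replicate 2 and 3 without Apcdd1+/- replicate 2.

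**Figure D4:**
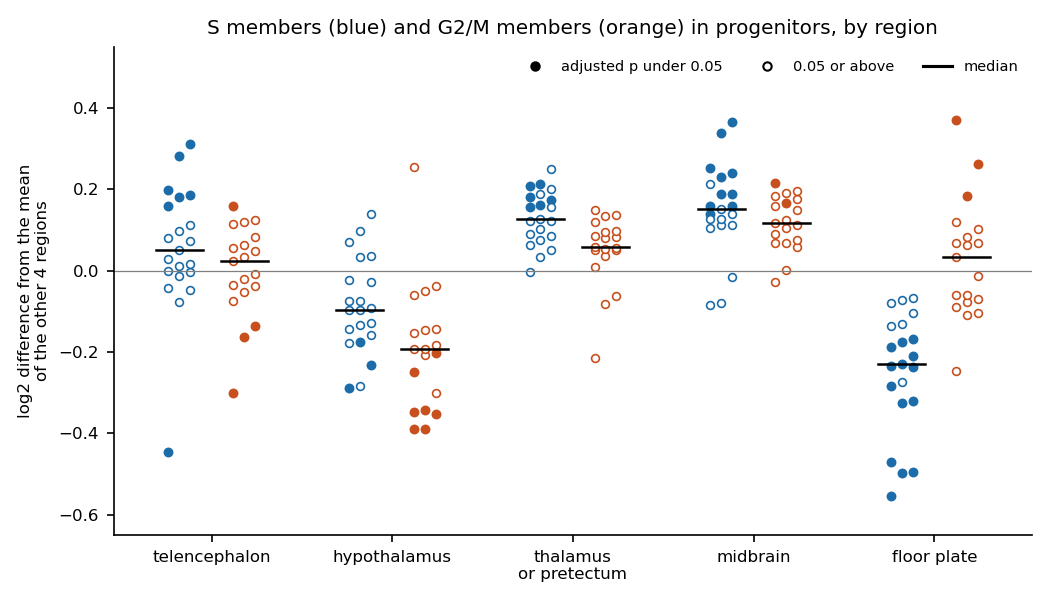
Log2 difference of each member in progenitors of one region from the mean of the other 4 regions, with S members in blue, G2/M members in orange, filled symbols at an adjusted p under 0.05 and bars at the median. S medians run from -0.23 in the floor plate to 0.15 in the midbrain, and G2/M medians from -0.19 in the hypothalamus to 0.12 in the midbrain.

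Many regional calls were lost with a stricter gate. With 1 more marker required in each gate, which leaves 21 to 54 floor plate cells a library, 0 S members were called higher in the telencephalon and thalamus or pretectum and 1 in the midbrain, and 0 were called lower in the hypothalamus and floor plate. Gins2 was still called lower in the telencephalon, at -0.78, and it was called in all 9 alternatives. In the floor plate Ung was at -0.49 (edgeR adjusted p = 0.105) and Cdt1 at -0.39 (edgeR adjusted p = 0.0669) under that gate.

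No member was called between the libraries labelled Apcdd1+/- and WT, over all cells or in any of the 5 classes, and neither was any other gene by edgeR's quasi-likelihood test (0% called in each). DESeq2 also called 0 members in each. The series compares these genotypes, and the tests had 2 libraries against 2. At an unadjusted p under 0.05 no member stood out over all cells or in progenitors, where 1.18% and 1.31% of all genes did, 1 in neuroblasts (2.87%), 5 in neurons (2.36%), none in mesenchyme (1.6%) and 4 in epithelium (2.83%). In data simulated on these counts the same test found 25% of genes changed by 1.5-fold and 89% of those changed by 2-fold over all cells. The changed genes were drawn from those of at least 10 CPM. In progenitors the shares were 22% and 93%, and genotype was not simulated in the other classes.

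Over all cells the S member of smallest p was Mcm7, with 474 and 518 CPM in the libraries labelled Apcdd1+/- and 419 and 394 CPM in WT (log2 difference 0.33, SE 0.15, edgeR adjusted p = 1). Ung had 89.8 and 88.0 against 73.5 and 78.9 CPM (0.27, SE 0.12) and Cdt1 147 and 136 against 121 and 128 CPM (0.24, SE 0.13). In these 3 genes both libraries labelled Apcdd1+/- were above both of WT. That was so for 7 of 21 S members and 2 of 19 G2/M members over all cells, where 8.54% of genes of at least 10 CPM did so. Both were below both of WT for 1 S and 2 G2/M members, where 11.3% of those genes were. Aurka (0.17, SE 0.13), Cdk1 (0.14, SE 0.13) and Ccnb2 (0.17, SE 0.16) were the G2/M members of smallest p, and Ccnb2 was at -0.03 without Apcdd1+/- replicate 1. Of the 40 members 31 had a positive value, with medians of 0.13 over the S and 0.02 over the G2/M members. Within progenitors both libraries labelled Apcdd1+/- were above both of WT for 3 S and 3 G2/M members, beside 8.44% of genes of at least 10 CPM. Those counts were 7 and 3 in neuroblasts (13.1%), 6 and 2 in mesenchyme (11.2%) and 12 and 0 in epithelium (14.5%). Below were 1 and 1 in progenitors (14.5%), 0 and 3 in mesenchyme (9.23%), and none in neuroblasts (14.7%) or epithelium (14.1%). The part of class shares in the counts over all cells was not tested.

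In progenitors Mcm7 was at 0.26 (SE 0.14), Cdc45 at 0.19 (SE 0.13), and Dtl, at 59.6 and 60.4 against 68.7 and 77.0 CPM, at -0.23 (SE 0.12). Aurka and Ccnb2 were at 0.20 and Cdk1 at 0.19, all with an edgeR adjusted p of 1. Pcna was called without Apcdd1+/- replicate 2, at 0.82 over all cells, 0.70 in progenitors, 0.88 in mesenchyme and 1.12 in epithelium. Apcdd1+/- replicate 1 had 270 CPM of Pcna over all cells and replicate 2 had 109 CPM, against 172 and 147 CPM in WT, so the 2 libraries of that label lay on opposite sides of both WT libraries. Without Apcdd1+/- replicate 1, Ube2c was called in epithelium, at -0.83 (SE 0.20, edgeR adjusted p = 0.0166). Each of these fits has a single Apcdd1+/- library, which is assumed to vary like the 2 of WT, so these calls compare that library with WT.

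In neurons most members had negative differences between the libraries labelled Apcdd1+/- and WT, while the summed levels overlapped. Summed S members had 1253 and 962 CPM in neurons of the libraries labelled Apcdd1+/- and 1251 and 1365 CPM in WT. Summed G2/M members had 1031 and 859 CPM against 1027 and 1515 CPM. In neurons 36 of 40 members had negative differences, with medians of -0.22 over the S and -0.35 over the G2/M members, none called. Both libraries labelled Apcdd1+/- were below both of WT for 10 S and 6 G2/M members, where 15.6% of genes of at least 10 CPM were, and above for 1 S member, where 11.3% were. Mki67, at 65.6 and 65.6 against 68.4 and 148 CPM, had a log2 difference of -0.66 (SE 0.27), and Top2a, at 168 and 154 against 188 and 299 CPM, one of -0.54 (SE 0.20). WT replicate 2 was above the other 3 libraries in both. It was also the library with the largest share of neurons with 10 or more G2/M UMIs and the highest median UMI count, and the part of either in the result was not tested. In the edgeR test of whether the neuron to progenitor difference itself differed between genotypes, all 40 members had negative values and none was called. Of them 17 had an unadjusted p under 0.05, where 4.39% of all genes reached it, and the lowest edgeR adjusted p was 0.917. The members were measured in the same 4 libraries and are not independent, so that count does not add up separate results. For neuroblasts and for mesenchyme against progenitors the same test gave member values of both signs. The smallest unadjusted edgeR p of a member was 0.0502 (Mcm4) in neuroblasts and 0.0989 (Mcm3) in mesenchyme. These tests were not repeated with a library left out.

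**Figure D5:**
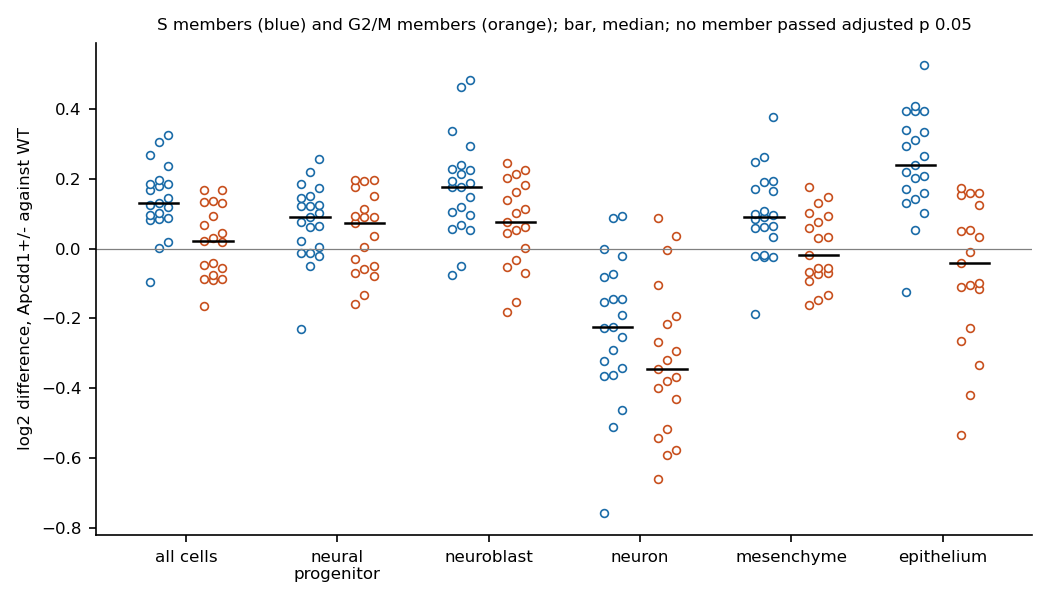
Log2 difference of each member between the libraries labelled Apcdd1+/- and WT over all cells and in 5 classes, with S members in blue, G2/M members in orange and bars at the median. Medians lie between -0.04 and 0.24 except in neurons, where they are -0.22 and -0.35, and no member passed an adjusted p of 0.05.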

How the data were processed

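The authors deposited raw UMI counts for each gene and cell, a matrix a library, made with PISA 0.12 per the file headers. The submitters' processing notes name mm10 and Scanpy 1.9.1, and the labels' protocols name a DNBelab C kit. Members and lists were chosen with earlier results of these data known. Cells with at least 500 genes and at most 10% mitochondrial UMIs were kept. Each gate asked for a minimum number of detected markers, set from marker counts alone. It was 3 of 6 for progenitors, 4 for neuroblasts, 6 for neurons, 3 for other classes and 2 for regions. Progenitors could also show at most 2 neuroblast and 3 neuron markers. Cells passing gates of more than 1 class were set aside, and no doublet caller was run. Counts were summed by class and library and tested with edgeR 4.0.16 (TMM scaling, filterByExpr, quasi-likelihood test, R 4.3.3), tested beforehand on simulated data. Total counts were 55393605 to 96822641 UMIs a library, and shares cover counting error only. Named in each comparison were the 3 S and 3 G2/M members of largest difference, the 1 of each of smallest, Pcna, Mcm2, Top2a and Mki67, for genotype the 3 of each of smallest p, and of other lists the 3 of highest CPM; Cdc25b, E2f1 and Cdkn1a and any member called beside at most 4 others were named after their values were seen. DESeq2 1.42.0, no filter on low counts, stricter and thinned gates, other depths, no library block and each library left out were alternatives.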

Additional observations from a re-analysis of the deposited data

How the results depend on the processing

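All 40 members were called lower in neurons than in progenitors under each alternative run. Against neuroblasts all 40 were as well, except that with at most 1 progenitor marker 17 S and 18 G2/M members were called lower in neurons. The other class and region counts depended on gates, filter and single libraries. Where a value below changed side or size, the cause was not tested, except that leaving out a library or asking for more markers leaves fewer samples or cells. Values named by gene are log2 differences, nearly all close to 0 and not called in the first place.

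Without a filter on low counts, 10 G2/M members were lower in neuroblasts than in progenitors, 11 lower in the hypothalamus and 5 higher in the midbrain. There Aurka turned to -0.056 in neuroblasts, Mcm6 to 0.037, Nusap1 to 0.031 and Mki67 to 0.0010 in the telencephalon, and Fen1 to 0.014 in the thalamus or pretectum.

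With 1 more marker in each gate, 7 G2/M members were lower in neuroblasts, and Aurka turned to -0.057. In the regions the counts became 0 S members higher in the telencephalon, 0 S and 1 G2/M lower in the hypothalamus, 0 S higher in the thalamus or pretectum, 1 S and 0 G2/M higher in the midbrain, and 0 S lower and 0 G2/M higher in the floor plate. Rrm1 turned to -0.038 in mesenchyme, Ung to 0.013 in epithelium, Nusap1 to 0.021 and Mcm2 to -0.0070 in the telencephalon, Mki67 to 0.19 in the hypothalamus, Top2a to -0.067 and Mki67 to -0.11 in the thalamus or pretectum, Nusap1 to -0.0047 in the midbrain and Mcm2 to 0.018 in the floor plate.

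With at most 1 progenitor marker in neuroblasts and neurons, 15 G2/M members were lower in neuroblasts, Aurka was at -0.46 there and Rrm1 at -0.0029 in mesenchyme. With gates on thinned cells, 13 G2/M members were lower in neuroblasts and 11 S members in mesenchyme. Mcm2 turned to 0.018, Aurka to -0.19 and Hmmr to -0.038 in neuroblasts, Rrm1 to -0.073 in mesenchyme and Ung to 0.031 in epithelium.

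Without the library block, 1 G2/M member was lower in neuroblasts, 3 S and 4 G2/M in mesenchyme, 1 S and 2 G2/M in the hypothalamus and 6 S in the floor plate. Then 2 S members were higher and 0 G2/M lower in the telencephalon, 0 S higher in the thalamus or pretectum, 1 S and 0 G2/M higher in the midbrain and 1 G2/M higher in the floor plate. Top2a turned to -0.00015 in the thalamus or pretectum and Nusap1 to -0.022 in the midbrain.

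With DESeq2, 1 G2/M member was higher in the floor plate, and Aurka was at -0.011 in neuroblasts and Nusap1 at -0.022 in the midbrain. Without cells above 2 times the median UMI count, 11 S members were lower in mesenchyme and 0 G2/M higher in the midbrain, with Rrm1 at -0.074 in mesenchyme, Nusap1 at -0.021 in the midbrain, and Aurka at 0.081 and Mki67 at 0.0010 in the floor plate.

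Shares of cells follow the depth of thinning. At 2000 UMIs, no G2/M member UMI was found in 6.13% of progenitors, 32.9% of neuroblasts and 64.7% of neurons, and no S member UMI in 28.9% of neurons. At 5000 UMIs these were 1.28%, 19.2%, 46.9% and 7.27%, and without thinning 0.847%, 16.0%, 34.4% and 4.25%, so the classes kept their order.

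Leaving out each library in turn, the G2/M members lower in neuroblasts numbered 2 to 4. In the telencephalon 3 to 7 S members were higher and 1 to 3 G2/M lower, in the hypothalamus 1 to 4 S and 2 to 12 G2/M lower, and in the thalamus or pretectum 0 to 5 S higher. In the midbrain 5 to 9 S and 0 to 5 G2/M members were higher, and in the floor plate 9 to 14 S lower and 1 to 3 G2/M higher. Between genotypes, in fits that leave 1 library in an arm and assume that it varies like the others, 0 to 1 members were called over all cells, in progenitors, in mesenchyme and in epithelium, where the call was Pcna or, in epithelium without Apcdd1+/- replicate 1, Ube2c at -0.83.

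In the same fits Aurka ran from -0.13 to 0.075 in neuroblasts, Rrm1 from -0.023 to 0.037 in mesenchyme and Hmmr from -0.25 to 0.038 in epithelium. In the telencephalon Mcm6 ran from -0.062 to 0.037, Nusap1 from -0.088 to 0.068 and Mcm2 from -0.038 to 0.045. In the hypothalamus Cdt1 ran from -0.069 to 0.053, Cdk1 from -0.15 to 0.049 and Top2a from -0.34 to 0.0042. In the thalamus or pretectum Fen1 ran from -0.045 to 0.023 and Top2a from -0.059 to 0.053. In the midbrain Dtl ran from -0.045 to 0.044, Nusap1 from -0.087 to 0.084 and Mki67 from -0.014 to 0.24. In the floor plate Cdc45 ran from -0.12 to 0.055 and Aurka from -0.090 to 0.042. Between genotypes Ccnb2 ran from -0.028 to 0.33 over all cells.

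The labels number the libraries 1 and 2 in each genotype, and same-numbered libraries deviated together with correlations from 0.0309 to 0.183 over genes in 6 sets of cells, which with 2 pairs does not establish pairing. With the replicate number as a block, 0 members were called in any class, and Mcm7 was at 0.33 over all cells. The smallest samples held 59 hypothalamic and 135 neuroblast cells, and the part of cell number or depth in the regional and neuroblast counts was not tested.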
